A study of Rattus norvegicus with 12 samples.

Results

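The genes described here are 6 hydroxysteroid dehydrogenases of rat liver: Hsd17b2, Hsd17b10, Hsd17b11, Hsd17b12, Hsd17b13 and Akr1c14. They were chosen by name, with earlier results of these data known, together with the steroid 5-alpha-reductase Srd5a1. Every probe set that the platform annotation gives to 1 of these symbols alone was taken. That rule found 8 probe sets among 31099 on the array, 3 of them for Akr1c14 and 1 for each of the other genes. Srd5a1 is not analysed here, so 6 of the 7 listed genes have values. All 8 probe sets were brighter than the filter on dim signals (a mean of 19.67 over the arrays).

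Liver RNA of 12 rats was measured on 1-colour Affymetrix arrays, 1 array per animal. Germ-free Sprague Dawley rats (animals 1, 3 and 4), which are reared without microbes, were set against Sprague Dawley rats with a normal flora, called conventional here (animals 6, 7 and 8). Han Wistar rats that drank streptomycin and penicillin for 8 days (animals 13, 14 and 15) were set against untreated Han Wistar rats (animals 1, 2 and 3). The labels give streptomycin at 4 mg/ml with penicillin at 2 mg/ml, and they do not settle whether this is the stock or the drinking water. No genetic change is named for any group, and the labels give no age, sex or diet. The design text asks only for these 2 comparisons, and strain differs together with the experiment, so levels were compared within a strain. The labels name separate animals, and nothing says how the animals were caged, so a shared cage or litter cannot be told apart from the group.

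Hydroxysteroid dehydrogenases move hydrogen between a hydroxyl and a keto group on the steroid skeleton, and so switch hormones between active and weak forms. The 17-beta type is a family by name more than by substrate: some members act mainly on fatty acyl chains, on branched-chain amino acid intermediates or at lipid droplets. The liver is a main site of steroid inactivation in the rat.

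In germ-free livers 1 of the 6 genes rose, 2 fell and 3 did not pass, at an adjusted p under 0.05. Among all 9300 genes tested 13.2% passed, 6.44% higher and 6.74% lower. Hsd17b2, the enzyme that oxidises estradiol and testosterone to their weak keto forms, rose by 2.75 on the log2 scale, and the ratio of its mean signals was 6.64. Hsd17b10, a mitochondrial enzyme of isoleucine breakdown, and Hsd17b12, the ketoacyl reductase of fatty acid elongation, fell by 0.58 and 0.38. The same 3 genes had groups that did not overlap, as 29.9% of all genes tested did. The median log2 fold change of the 6 genes was 0.16, against 0.02 over all genes. After antibiotics 0 of the 6 genes passed (limma, 0.0215% of all genes did), 1 had an unadjusted p under 0.05, and 2 had groups that did not overlap, as 18.3% of all genes did. In the test of the difference between the 2 comparisons, Hsd17b2 passed with a positive value and Hsd17b10 with a negative one. Among all genes 5.94% passed that test, 2.69% with a positive and 3.25% with a negative value.

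**Figure D1:**
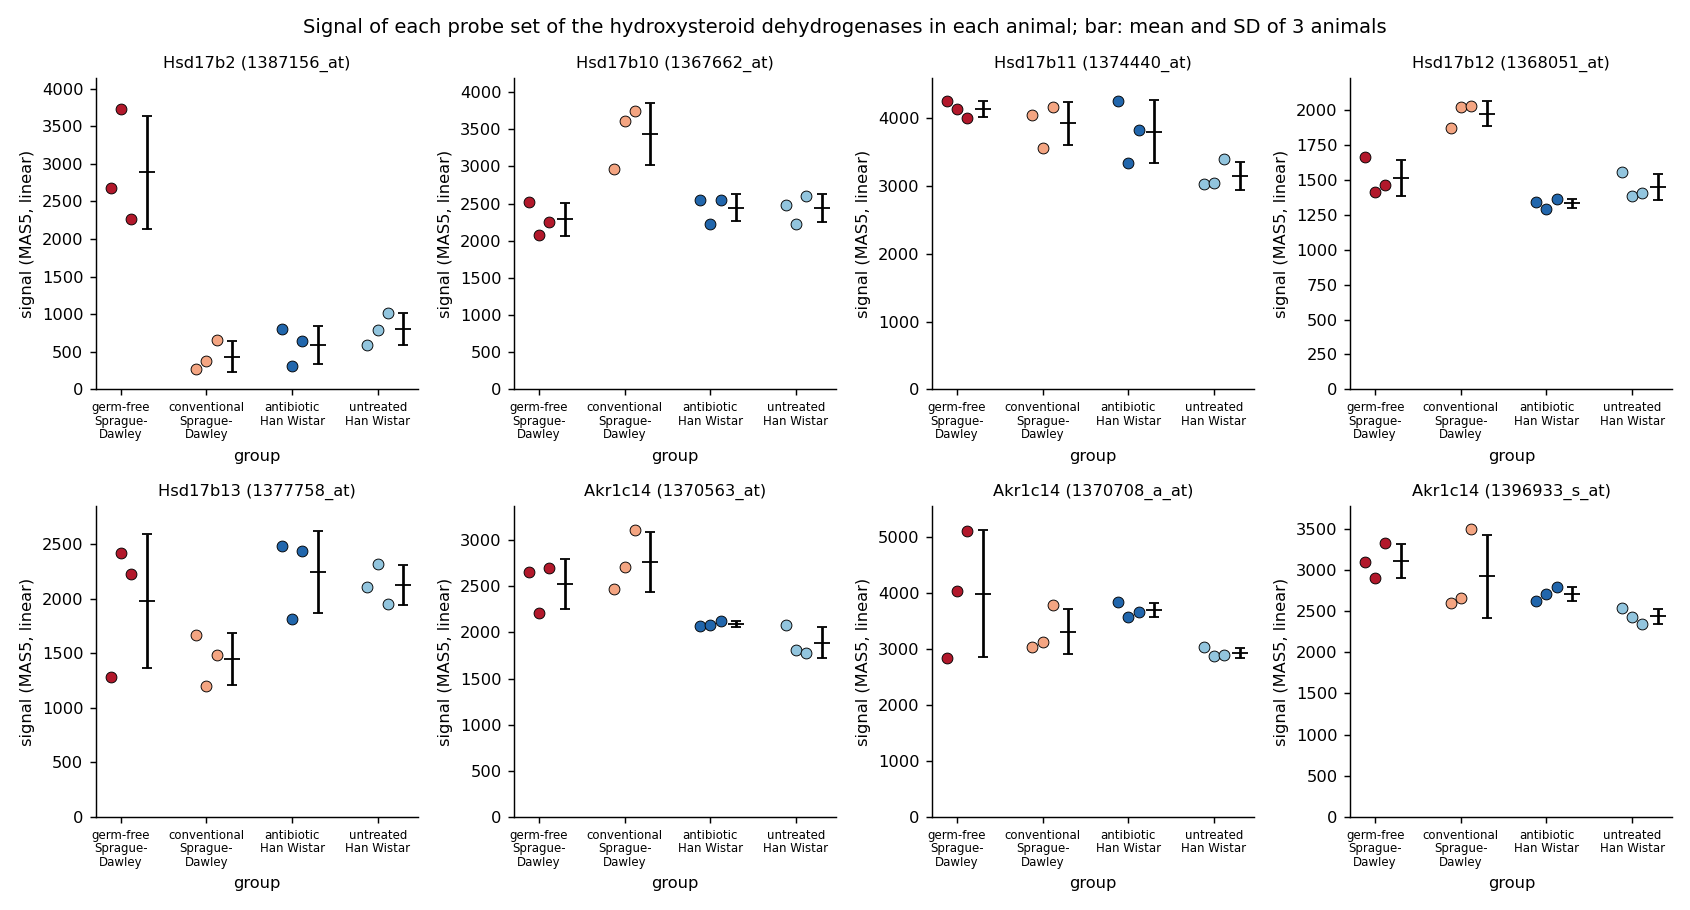
Signal of the 8 probe sets in each animal (linear MAS5 signal, axis from 0), by group; points are animals and bars the mean and SD of 3. The 3 germ-free animals stand above every other animal for Hsd17b2, and the 3 conventional animals stand above every other animal for Hsd17b10 and Hsd17b12.

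Hsd17b2 (probe set 1387156_at) turns estradiol into estrone, testosterone into androstenedione and 20-alpha-dihydroprogesterone into progesterone. Its signal was 2673.5, 3728.2 and 2267.5 in germ-free livers, against 272.9, 371.7 and 660.8 in conventional livers. Every germ-free animal was above every conventional one, and conventional animal 8 was the highest of its group. Germ-free livers averaged 2890 ± 754, and conventional livers 435 ± 202 (SD, n = 3 each). The log2 fold change was 2.75 ± 0.34 (SE, 95% interval 2.02 to 3.48), with an adjusted p of 0.00018 in the limma fit. It passed in all 23 alternatives tried, with values from 2.47 to 3.09. Several of these, such as leaving out a Han Wistar animal, can change only the p and not the value.

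The antibiotic-treated livers gave Hsd17b2 signals of 802.6, 314.8 and 644.8, against 589.9, 791.7 and 1015.0 in untreated livers. The groups overlapped, with antibiotic animal 14 the lowest of the 6. On the log2 scale the change was -0.50 ± 0.34 (interval -1.23 to 0.23), adjusted p = 0.66. Removing antibiotic animal 14 gave -0.11, antibiotic animal 13 -0.77 and untreated animal 3 -0.31, none of which passed. The change in germ-free livers was larger than that after antibiotics by 3.25 ± 0.48 (interval 2.22 to 4.28), adjusted p = 0.00207, and this difference passed in all 22 alternatives. That test spans separate strains, experiments and kinds of treatment at once.

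Markers of liver endothelial cells moved beside Hsd17b2. Of 6 with a probe set 5 rose in germ-free livers, where 6.44% of all genes rose. The summed signal of the 6 ran from 1278.7 to 1803.4 in germ-free animals, against 697.2 to 879.5 in conventional animals. After antibiotics 0 of the 6 passed, and the sums ran from 1236.2 to 1704.9 in antibiotic-treated and from 965.8 to 1853.1 in untreated animals. Their part in the Hsd17b2 result was not tested. In whole liver, a change in the number of cells of a type and a change in RNA per cell cannot be told apart. Markers of hepatocytes did not pass (0 of 5), with sums of 37292 to 42148 in germ-free and 33705 to 36709 in conventional animals. Of 6 Kupffer cell markers 1 fell in germ-free livers, Clec4f by 0.64 (limma, adjusted p = 0.0264). Of 8 stellate cell and 3 tested bile duct markers 0 passed. The 4 markers of the adrenal cortex, where steroids are made, were all under the filter on dim signals, and none exceeded 17 in any animal.

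Hsd17b10 (probe set 1367662_at) is a mitochondrial dehydrogenase that oxidises 2-methyl-3-hydroxybutyryl-CoA in isoleucine breakdown and also serves in the complex that processes mitochondrial transfer RNA. Its signal was 2523.8, 2077.8 and 2258.4 in germ-free livers, against 2967.1, 3614.7 and 3744.2 in conventional livers. Every germ-free animal was below every conventional one. Germ-free livers averaged 2287 ± 224, and conventional livers 3442 ± 416 (SD, n = 3 each), a log2 fold change of -0.58 ± 0.11 (interval -0.82 to -0.34), adjusted p = 0.00389.

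After antibiotics Hsd17b10 read 2541.6, 2231.5 and 2553.1, against 2477.2, 2229.8 and 2602.3 in untreated livers, and the groups overlapped almost entirely. The fitted log2 change was 0.00 ± 0.11 (interval -0.24 to 0.24), adjusted p = 0.996. The difference between the comparisons was -0.59 ± 0.16, adjusted p = 0.0437. It is close to the threshold: it passed in 9 of 22 alternatives and not with germ-free 3 or 4, conventional 7 or 8, antibiotic 13 or 15, or any of the 3 untreated animals removed (adjusted p = 0.0542 to 0.115). It also missed the threshold with no filter (0.0727), no variance trend (0.0719), quantile normalization (-0.41, 0.0908) or the actin covariate (-0.37, 0.279).

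Hsd17b12 (probe set 1368051_at) carries out the second step of the cycle that lengthens long-chain fatty acids in the endoplasmic reticulum. Its signal was 1663.7, 1415.0 and 1466.0 in germ-free livers, against 1870.9, 2024.2 and 2027.6 in conventional livers. The 2 groups were apart, with germ-free animal 1 nearest to the conventional range. Germ-free livers averaged 1515 ± 131, and conventional livers 1974 ± 89.5 (SD, n = 3 each). Hsd17b12 changed by -0.38 ± 0.09 on the log2 scale (interval -0.58 to -0.19), adjusted p = 0.0134.

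After antibiotics Hsd17b12 read 1340.2, 1295.8 and 1360.8, against 1560.1, 1382.3 and 1406.8 in untreated livers. All antibiotic-treated animals were lower than every untreated one, yet the log2 fold change of -0.12 ± 0.09 (interval -0.31 to 0.08) did not pass, adjusted p = 0.712, and it was -0.065 with untreated animal 1 removed. The difference between the comparisons was -0.26 ± 0.13 (interval -0.54 to 0.01), adjusted p = 0.261.

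The beta-actin control's 3' to 5' signal ratio, which is higher in more degraded RNA, was lower on average in germ-free than in conventional animals, though the groups overlapped. It was 5.14, 3.62 and 4.41 in germ-free and 4.50, 6.17 and 5.43 in conventional animals (exact permutation test, two-sided p = 0.2, smallest possible 0.1). In Han Wistar rats it was 2.71, 2.61 and 2.87 after antibiotics and 2.47, 2.69 and 2.48 in untreated animals. Every Han Wistar animal was thus below every Sprague Dawley one, so the actin ratio also differed with strain and experiment, which cannot be told apart. The same ratio of the Gapdh control overlapped between the strains. It averaged 1.52 in germ-free and 1.63 in conventional animals (exact permutation test, two-sided p = 0.6). With the actin ratio as a covariate Hsd17b10 stood at -0.42 (adjusted p = 0.0557) and Hsd17b12 at -0.29 (adjusted p = 0.135), while Hsd17b2 kept its call. With germ-free animal 3 removed Hsd17b12 stood at -0.33 (adjusted p = 0.0695). Each of these 3 values ended a call.

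Hsd17b10 and Hsd17b12 fell together, so their promoters are shown: 300 bases, 250 before and 50 after the start, from RefSeq on GRCr8, 5′ to 3′ on the gene's strand. Capitals mark 2 short motifs, searched on both strands: the CCAAT box, named by its letters, and the GC box, GGGCGG. Hsd17b10 lies at chrX:24568301-24568600 on the plus strand and Hsd17b12 at chr3:100568849-100569148 on the minus strand.
Hsd17b10: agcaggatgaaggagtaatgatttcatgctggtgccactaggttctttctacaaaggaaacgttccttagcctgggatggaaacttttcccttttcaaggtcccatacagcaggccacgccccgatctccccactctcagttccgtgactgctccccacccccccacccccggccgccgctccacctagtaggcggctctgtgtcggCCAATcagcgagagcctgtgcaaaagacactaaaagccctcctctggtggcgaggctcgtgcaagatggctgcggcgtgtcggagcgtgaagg
Hsd17b12: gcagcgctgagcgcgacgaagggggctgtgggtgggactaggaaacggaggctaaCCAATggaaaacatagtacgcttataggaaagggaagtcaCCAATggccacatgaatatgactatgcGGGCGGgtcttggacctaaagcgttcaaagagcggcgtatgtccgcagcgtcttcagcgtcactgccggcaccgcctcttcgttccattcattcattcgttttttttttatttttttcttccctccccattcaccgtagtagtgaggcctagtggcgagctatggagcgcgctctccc
The Hsd17b10 window holds 1 CCAAT box. The Hsd17b12 window holds 2, and also 1 GC box. Of 33469 such windows 37.5% hold a CCAAT box and 33.1% a GC box, so both are common. A TATA box (TATAAA), which 14.2% of all windows hold, was not matched in either. An E-box (CACGTG) is in 6.4% of all windows and in neither of these. The same holds for the nuclear receptor half-site, AGGTCA, found in 16.2% of all windows. Windows of Hsd17b11, Hsd17b13 and Akr1c14 each hold 1 CCAAT box, with 1 GC box in that of Hsd17b11 and 1 half-site in that of Hsd17b13. A window of Hsd17b2 was not among the promoters available, so none was searched. GC content was 58.3% in the Hsd17b10 window and 53.3% in the Hsd17b12 window, 40.7% in that of Akr1c14, and the median of all windows was 51.7%.

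Hsd17b11 (probe set 1374440_at) oxidises androstanediol at the 17 position and sits at lipid droplets. Its signal was 4254.5, 4142.6 and 4010.5 in germ-free livers, against 4043.8, 3563.3 and 4164.1 in conventional livers. The groups overlapped, with a log2 fold change of 0.08 ± 0.10 (interval -0.14 to 0.30), adjusted p = 0.661, and of 0.01 with conventional animal 7 removed. After antibiotics the signals were 4254.5, 3339.3 and 3820.8, against 3023.7, 3037.6 and 3391.7 in untreated livers. Antibiotic animal 14 lay within the untreated range, and the other two lay above it. This was a log2 fold change of 0.27 ± 0.10 (interval 0.05 to 0.48), with an unadjusted p of 0.0202 and an adjusted p of 0.38. Under quantile normalization it was 0.04 (adjusted p = 0.905).

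Hsd17b13 (probe set 1377758_at), the next gene on the same chromosome in the GRCr8 annotation with 0 annotated genes between, is a lipid droplet protein of hepatocytes. It read 1280.8, 2424.1 and 2231.2 in germ-free livers, against 1671.3, 1197.5 and 1482.5 in conventional livers. Germ-free animal 1 lay inside the conventional range, and the other two lay above it. The log2 change was 0.40 ± 0.21 (interval -0.04 to 0.84), adjusted p = 0.217, a value that single animals moved both ways. It was 0.69 with germ-free animal 1 removed (adjusted p = 0.0127) and 0.23 with germ-free animal 3 removed (0.572), and with the actin covariate it was 0.069 (0.887). The signals after antibiotics were 2484.3, 1815.2 and 2434.6, against 2108.3, 2314.8 and 1948.7 in untreated livers. These overlapped, with a log2 fold change of 0.07 ± 0.21 (interval -0.37 to 0.51), adjusted p = 0.955, and leaving out single animals gave -0.011 to 0.21.

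Akr1c14, the rat 3-alpha-hydroxysteroid dehydrogenase, reduces 3-keto steroids and also binds bile acids. Its brightest probe set, 1370708_a_at, read 2835.9, 4034.9 and 5107.9 in germ-free livers, against 3036.0, 3125.1 and 3782.0 in conventional livers. The groups overlapped, since germ-free animal 1 was the lowest of the 6. The log2 fold change was 0.23 ± 0.16 (interval -0.11 to 0.58), adjusted p = 0.368, and it too depended on single animals. It was 0.46 with germ-free animal 1 removed (adjusted p = 0.024) and 0.036 with germ-free animal 4 removed (0.904). Averaging the 3 probe sets gave 0.068 (0.732), and the actin covariate 0.12 (0.788). The 2 other probe sets, tested among every probe set that passed the filter (12.2% of 15523 passed), gave -0.13 ± 0.11 (1370563_at) and 0.10 ± 0.11 (1396933_s_at), neither passing, so the 3 probe sets did not share a sign.

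After antibiotics the brightest Akr1c14 probe set read 3836.4, 3584.4 and 3671.7, against 3041.0, 2872.1 and 2892.9 in untreated livers. All 3 antibiotic-treated animals were higher than every untreated one, yet the log2 fold change of 0.33 ± 0.16 (interval -0.01 to 0.68) did not pass (unadjusted p = 0.058, adjusted p = 0.499). The groups of 1396933_s_at were apart as well, with 2617.8, 2708.1 and 2785.9 after antibiotics, against 2530.2, 2422.1 and 2347.2 untreated, while those of 1370563_at overlapped. Both gave 0.15 ± 0.11, with adjusted p of 0.693 and 0.702; 0.0193% of all probe sets passed. The summed signal of the 5 hepatocyte markers was higher in the same animals, 28002 to 34413 after antibiotics against 20848 to 25002 untreated, with 0 of 5 passing; its part in the Akr1c14 values was not tested. Under quantile normalization the brightest probe set stood at 0.13 (adjusted p = 0.797), and the average of the 3 probe sets at 0.21 (0.550).

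**Figure D2:**
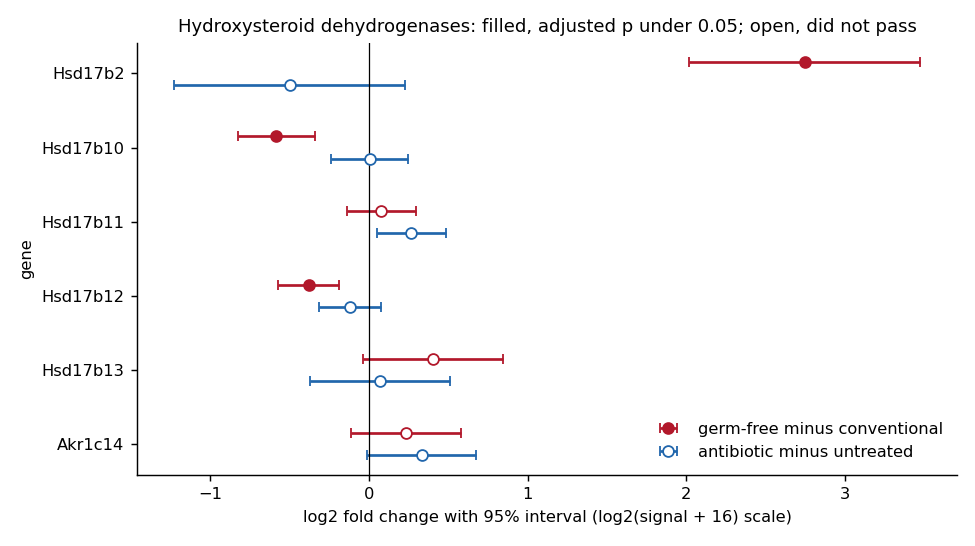
Log2 fold change (log2(signal + 16) scale) with 95% interval for each gene's brightest probe set, germ-free minus conventional (red) and antibiotic minus untreated (blue); filled points passed an adjusted p of 0.05. Hsd17b2 stands at 2.75 in germ-free livers, and all 6 antibiotic points are open.

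Over the 4 groups, which span both strains and are ordered here only as a description, the mean signal of Hsd17b2 was highest in germ-free livers, followed by untreated, antibiotic-treated and conventional livers. The germ-free animals alone were apart from their neighbour in that order. Hsd17b10 was highest in conventional livers, which were apart from the antibiotic-treated, untreated and germ-free livers that followed and overlapped. For Hsd17b12 the order was conventional, germ-free, untreated and antibiotic-treated, and the germ-free and untreated animals overlapped while the other neighbours did not. For Hsd17b11, Hsd17b13 and the brightest Akr1c14 probe set all neighbours in the order overlapped.

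Across the 6 genes the spread between animals differed. The coefficient of variation in germ-free livers ran from 2.95% for Hsd17b11 to 30.9% for Hsd17b13, with 26.1% for Hsd17b2 and 9.81% for Hsd17b10. In conventional livers it ran from 4.53% for Hsd17b12 to 46.3% for Hsd17b2, with 12.1% for Hsd17b10. After each strain's mean was removed, Hsd17b10 and Hsd17b12 had a Pearson r of 0.91 over the 12 arrays, and Hsd17b2 had -0.69 with Hsd17b10 and -0.72 with Hsd17b12. These r values carry the group differences themselves and shared arrays, and they are given as a description.

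The genes with the pattern most like each changed member, by the same r over 12 arrays, were named. For Hsd17b2 these were Cd81 (0.959), a tetraspanin, Cyp2f4 (0.956), a cytochrome P450, and Maob (0.948), monoamine oxidase B. For Hsd17b10 they were Psmd11 (0.964), a proteasome subunit, Fkbp5 (0.958), a co-chaperone of steroid receptors, and Pdp2 (0.951), a pyruvate dehydrogenase phosphatase. For Hsd17b12 they were Psmd11 again (0.954), Acsm2 (0.938), an acyl-CoA synthetase, and Fech (0.938), ferrochelatase. The log2 fold changes in germ-free livers were 0.59, 0.94 and 0.81 for the first 3 genes, and -0.49, -1.06 and -0.62 for those of Hsd17b10.

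**Figure D3:**
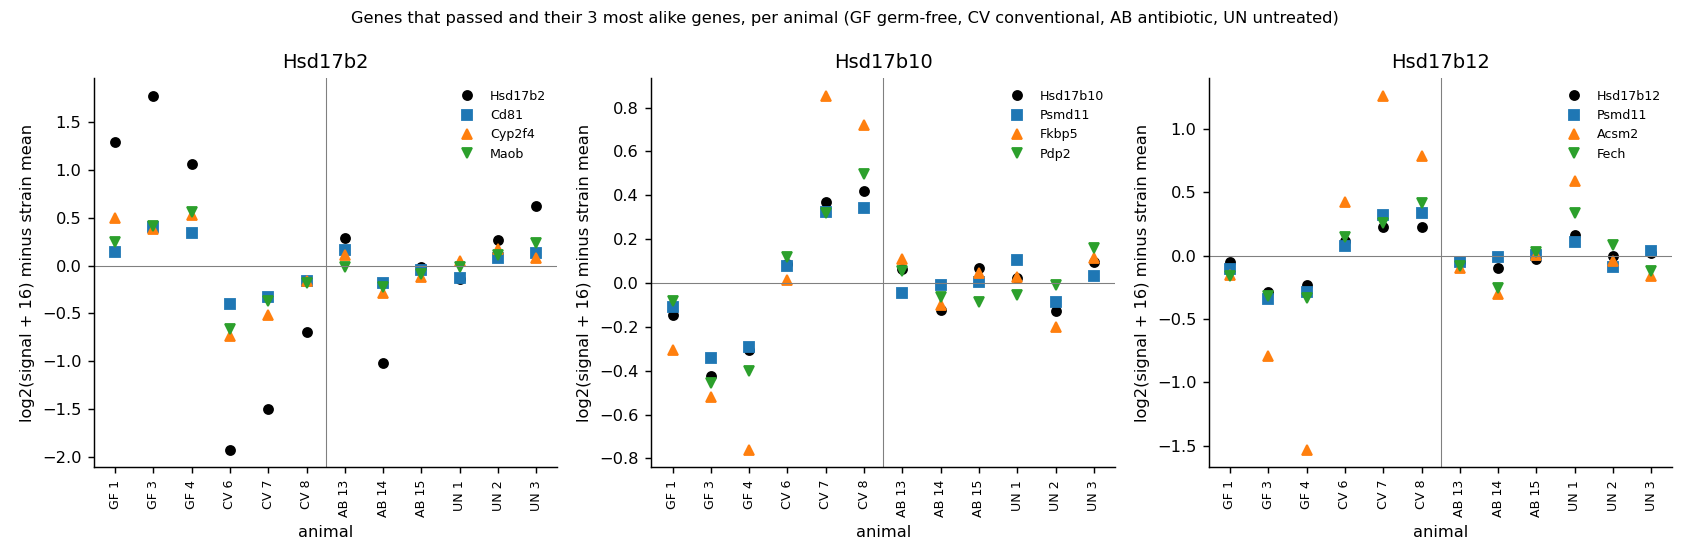
Log2(signal + 16) minus the strain mean in each animal (no units) for each changed gene and its 3 most alike genes; black circles are the gene itself. The germ-free and conventional animals stand on opposite sides of 0 for Hsd17b2, Hsd17b10 and Hsd17b12.

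The neighbouring pathways were read from 8 lists of 78 genes, of which 53 were tested. In germ-free livers 5 of the 53 rose and 15 fell, or 37.7%, against 13.2% of all genes, with a median of -0.10. The lists were chosen with earlier results of these data known, so this share is given only as a description. After antibiotics 0 of 53 passed (limma; 2 of 9300 genes did, and 969 had an unadjusted p under 0.05). The lowest p among them was that of Elovl2, at 0.82 ± 0.18 with an adjusted p of 0.173.

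Of 7 other 17-beta type and related enzymes tested 1 rose and 3 fell, with a median of -0.10. Hsdl2, a peroxisomal relative of the family, fell by 1.70 ± 0.27 (adjusted p = 0.00106), at 736 ± 348 in germ-free against 2279 ± 149 in conventional livers (SD, n = 3 each). Hsd17b7, a 3-ketosteroid reductase of cholesterol synthesis, fell by 0.67 (adjusted p = 0.0432), and Hsd17b4, the peroxisomal multifunctional enzyme, by 0.36 (0.0365). Hsd17b6, which oxidises androstanediol, rose by 0.85 (0.0465). The last 3 calls were lost in 10, 10 and 14 of 23 alternatives, among them for Hsd17b7 with germ-free 1 or 4, conventional 6 or 7, antibiotic 13 or 14, or untreated 1 removed (adjusted p = 0.051 to 0.147). Hsd17b4 did not pass with germ-free 3 or 4, any conventional animal or untreated 1 removed (0.0514 to 0.164). Hsd17b6 did not pass with germ-free 3 or 4, antibiotic 14, or any conventional or untreated animal removed (0.0529 to 0.174).

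Of 5 other hydroxysteroid dehydrogenases and partners 0 rose and 1 fell (median -0.24). H6pd, which supplies NADPH in the endoplasmic reticulum, fell by 0.42 (adjusted p = 0.0309), a call that ended with germ-free 3 or 4 or conventional 7 or 8 removed (0.0655 to 0.117). Next by p in that list was Hsd3b5, at 0.40 ± 0.16 (limma, adjusted p = 0.103), with groups that did not overlap. Among the alternatives Hsd3b5 passed only with the actin covariate (0.66, 0.0278). Of 6 reductases tested 2 rose and 0 fell (median 0.61). Akr1c3, a progesterone-inactivating reductase, rose by 1.01 ± 0.28 (adjusted p = 0.0296), a call that ended with germ-free 3 or 4 or conventional 6 or 7 removed (0.0559 to 0.117), and Akr1c15 by 0.97 ± 0.27 (0.028), a call that ended with germ-free 1 or 3 or conventional 6 or 7 removed (0.0533 to 0.116).

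Of 5 conjugation and electron supply genes 1 rose and 1 fell (median 0.14). Sts, the sulfatase that releases steroids from their sulfates, rose by 0.97 ± 0.16 (adjusted p = 0.00137). Por, which passes electrons to cytochrome P450 enzymes, fell by 0.48 (adjusted p = 0.019), a call that ended with germ-free 3 or 4 or conventional 6 removed (0.0631 to 0.0758). Of 2 steroid receptors tested Nr3c1, the glucocorticoid receptor, rose by 0.91 ± 0.14 (adjusted p = 0.00079), and Nr3c2 had -0.05 (0.85).

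Of 7 genes of the elongation cycle, in which Hsd17b12 acts, 0 rose and 3 fell (median -0.71). Elovl1, an elongase of saturated chains, fell by 0.77 ± 0.09 (adjusted p = 0.00017), to 155 ± 4.08 in germ-free livers against 275 ± 13.5 in conventional livers (SD, n = 3 each). Elovl2 fell by 0.71 (0.0199) and Hacd1, a dehydratase of the cycle, by 0.72 (0.0105). Elovl2 did not pass with germ-free 1 or 3 or conventional 6 or 8 removed (0.0566 to 0.0925), nor did Hacd1 with germ-free 3 removed (0.0544).

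Of 9 genes of isoleucine breakdown and mitochondrial RNase P, where Hsd17b10 acts, 0 rose and 2 fell (median -0.05). Acat1, the thiolase that follows Hsd17b10 in isoleucine breakdown, fell by 0.68 ± 0.14 (adjusted p = 0.00723), and Bckdhb, a subunit of the branched-chain ketoacid dehydrogenase, by 0.87 ± 0.15 (0.00231). Of 12 lipid droplet genes, the setting of Hsd17b11 and Hsd17b13, 0 rose and 5 fell (median -0.65). Plin2, a coat protein of the droplet, fell by 1.24 ± 0.12 (adjusted p = 3.7e-05), to 1371 ± 198 in germ-free livers against 3259 ± 439 in conventional livers (SD, n = 3 each). Plin5 fell by 1.51 (5.7e-05), Plin3 by 1.22 (0.000197) and the triglyceride lipase Pnpla2 by 1.5 (0.000443). Fitm2, which helps form droplets, fell by 0.83 (0.016), a call that ended with germ-free 3 or 4 or conventional 6 removed (0.0575 to 0.0809). With its probe sets averaged Plin2 stood at -0.51.

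With the actin ratio as a covariate 8 of the 20 listed genes that passed in germ-free livers did not: Hsd17b4, Hsd17b6, H6pd, Akr1c3, Akr1c15, Por, Hacd1 and Fitm2 (adjusted p = 0.0535 to 0.219). Averaging probe sets ended the calls of Por (0.0817) and Hacd1 (0.0861). A fit on the 6 Sprague Dawley arrays alone ended those of Hsd17b4 (0.0595), Hsd17b7 (0.0708), H6pd (0.0956) and Akr1c3 (0.0655), and quantile normalization those of Hsd17b6 (0.0533) and H6pd (0.0543). Hsd17b4, Hsd17b6 and Hsd17b7 also missed the threshold with no filter (0.0598 to 0.0759) and with no variance trend (0.0527 to 0.0614), and Hsd17b6 with a robust prior (0.0854). The value of Akr1c15, a dim gene, was 1.51 with an offset of 1 and 0.47 with an offset of 64, and that of Plin5 was -0.86 with an offset of 64.

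**Figure D4:**
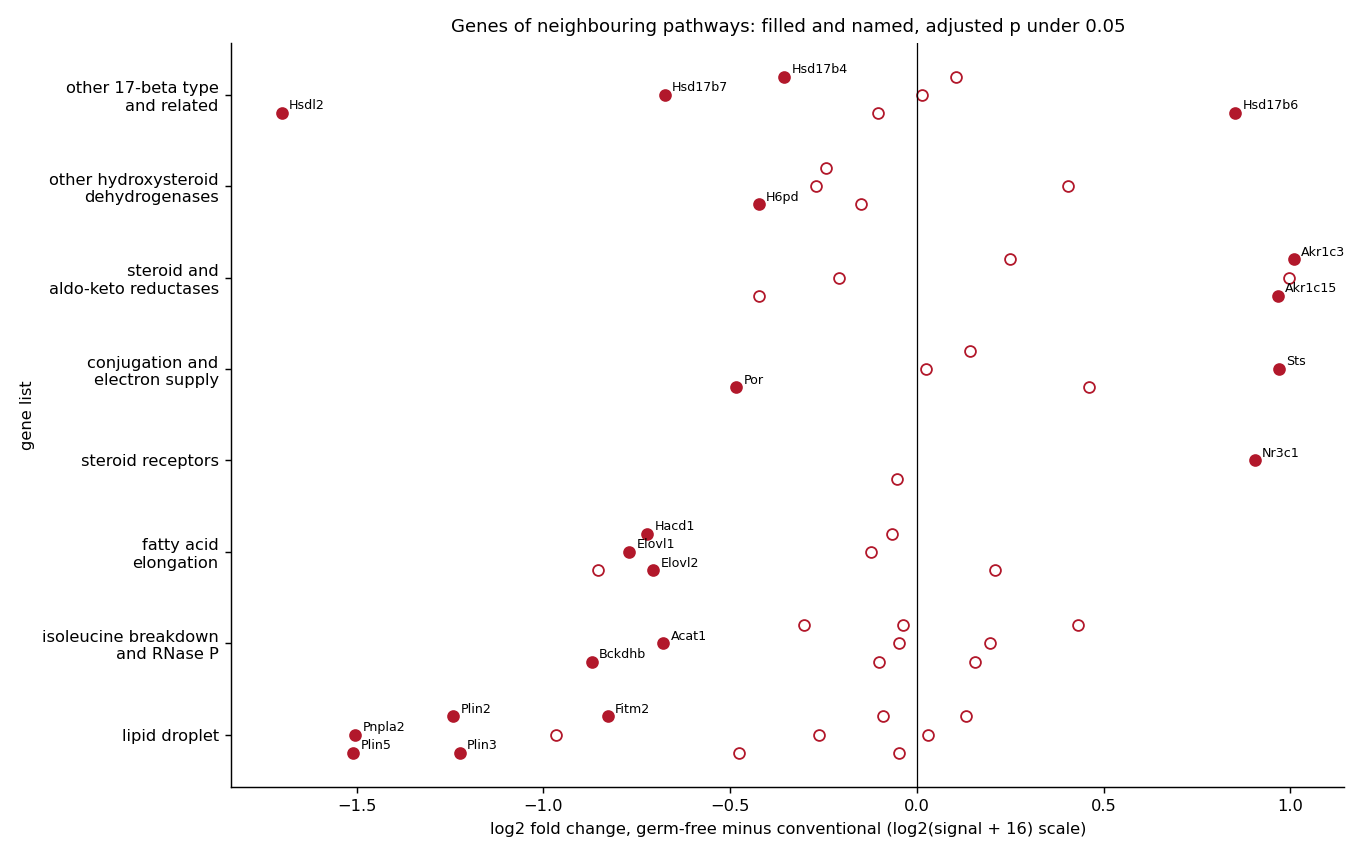
Log2 fold change, germ-free minus conventional (log2(signal + 16) scale), of the 53 tested genes of 8 lists, 1 row per list; filled, named points passed an adjusted p of 0.05. Elongation and lipid droplet points that passed all lie left of 0, and both reductases that passed lie right of 0.

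**Figure D5:**
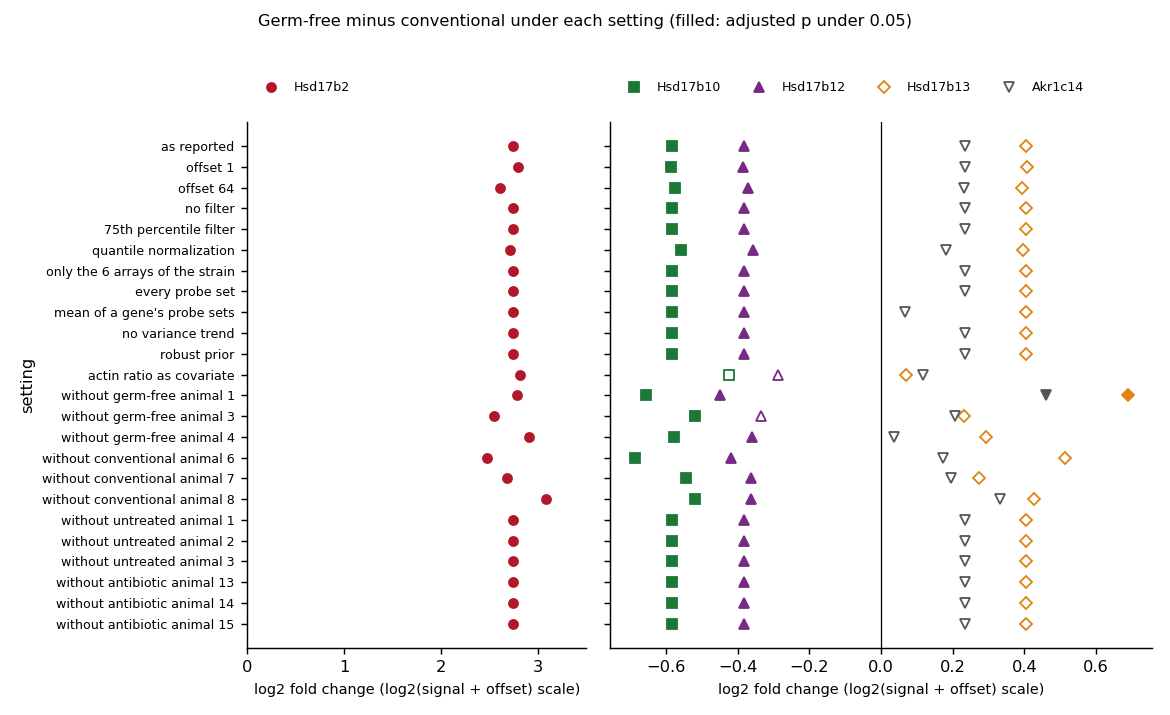
Log2 fold change, germ-free minus conventional, of 5 genes under each setting, 1 row per setting; filled points passed an adjusted p of 0.05. Hsd17b2 is filled in every row, Hsd17b10 is open with the actin covariate, and Hsd17b12 is open there and without germ-free animal 3.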

How the data were processed

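Liver RNA of 12 rats was labelled with biotin and hybridised to 1-colour arrays, per the labels' protocols. Each array's deposited column holds signal intensities on a linear scale, made with MAS5 per the submitters' processing notes (version not given in the sources). Each array's trimmed mean (2% off each end) was 100.0 to 100.1, so values were used as deposited, with no background correction or further scaling; detection calls and scan dates were not used here, and arrays carry no slide label. Within groups, arrays correlated at 0.980 to 0.988 and none were identical.

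Of 31042 probe sets that are not controls (57 are), 20826 carry a single symbol, 436 more than 1 and 9780 no symbol; names were updated through RefSeq GRCr8. The brightest probe set stood for a gene, and genes with a mean signal under 19.67, the median, were left out, which gave 9300. Log2(signal + 16) was fitted in R 4.3.3 with limma 3.58.1 (1 mean per group over 12 arrays, moderated variance with intensity trend); two-sided p-values were adjusted over all genes (Benjamini-Hochberg), threshold 0.05. Fold changes understate changes of dim genes. The number of arrays limits the precision; the median standard error was 0.144. The fit was tested on simulated data. Of genes changed by 0.5 on the log2 scale it recovered 37.3% in the germ-free and 35.8% in the antibiotic comparison. Of genes changed by 1 it recovered 97% in each. A gene that did not pass is therefore not shown to be unchanged.

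The genes and gene lists were chosen with earlier results of these data known. Named list genes are those that passed, or up to 2 of smallest p. For each changed gene the 3 most alike genes were taken by Pearson r. Alternatives are in the closing section.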

Additional observations from a re-analysis of the deposited data

Results flagged for a closer look

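For 15 of the genes named above the change in germ-free livers differed from that after antibiotics in the limma test of the difference itself (germ-free minus conventional, less antibiotic minus untreated), which passed for 5.94% of all genes. Strain, experiment and kind of treatment differ together in it, and groups of 3 were not tested for outlying animals. Among the hydroxysteroid dehydrogenases, the difference was 3.25 for Hsd17b2 (adjusted p = 0.00207) and -0.59 for Hsd17b10 (0.0437).

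Among the listed genes the difference was positive for Akr1c3 (1.58, adjusted p = 0.0333), Sts (1.12, 0.0105) and Nr3c1 (0.89, 0.0168). It was negative for Hsdl2 (-1.52, 0.0332), Por (-0.65, 0.0412), Elovl1 (-0.60, 0.0186), Elovl2 (-1.53, 0.00356), Acat1 (-0.83, 0.0316) and Bckdhb (-0.90, 0.0285). It was also negative for Plin2 (-1.56, 0.000255), Plin3 (-1.39, 0.00262), Plin5 (-1.66, 0.000943) and Pnpla2 (-1.73, 0.00436). Leaving out 1 animal at a time ended 5 of the listed genes' calls. Hsdl2 did not pass with germ-free 3 or 4, conventional 6 or 7, antibiotic 13 or 15, or untreated 1 or 2 removed (adjusted p = 0.0561 to 0.0877). Akr1c3 did not with germ-free 3 or 4, conventional 6 or 7, antibiotic 13 or 14, or untreated 2 removed (0.0527 to 0.0818). Por passed only as fitted on all 12 arrays or with germ-free 1 or untreated 1 removed, among the fits that leave out an animal (0.0548 to 0.101 otherwise). Acat1 did not pass with germ-free 3, conventional 6 or 8, antibiotic 13 or 15, or any untreated animal removed (0.0533 to 0.0844), nor Bckdhb with germ-free 3 or 4, antibiotic 14, or untreated 1 or 3 removed (0.0543 to 0.0711). Other settings ended further calls. The actin covariate did so for Hsdl2 (-1.02, 0.213), Akr1c3 (0.103), Por (0.134), Nr3c1 (0.59, 0.130), Elovl1 (0.0667), Acat1 (0.111) and Bckdhb (0.175). Averaging probe sets did so for Plin2 (-0.55, 0.0705), Nr3c1 (0.54, 0.0871) and Por (0.0966). With no filter Hsdl2 (0.0555), Akr1c3 (0.0564), Por (0.0596) and Acat1 (0.0505) did not pass, nor did Hsdl2 (0.0660) and Akr1c3 (0.0524) with a robust prior, or Por with quantile normalization (0.0529) or no variance trend (0.0621). Plin5 kept its call with an offset of 64 at -0.93. In every alternative run the calls of Hsd17b2, Sts, Elovl2, Plin3, Plin5 and Pnpla2 held. Hsd17b10 is described above.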

How the results depend on the processing

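Alternatives were offsets of 1 and 64, no filter, a 75th percentile filter, quantile normalization, each strain's 6 arrays alone, every probe set, averaged probe sets, no variance trend, a robust prior, the actin 3' to 5' ratio as a covariate, and leaving out each animal. No paired analysis was possible because the groups compared share no animal numbers.

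In germ-free livers the count of hydroxysteroid dehydrogenases that passed was 1 with the actin covariate and ran from 2 to 5 when an animal was left out; without germ-free animal 1 it was 5. With every probe set, 1901 of 15523 probe sets passed, or 12.2%, against 13.2% of genes as reported. The count over all genes was 606 with the actin covariate and 654 to 1236 without an animal, lowest without germ-free animal 3. After antibiotics 0 of the 6 passed in every setting run. The count over all genes was 1 with an offset of 1, 4 of 14217 with no filter and 0 of 5466 with the 75th percentile filter. It was 6 with a robust prior, and 0 to 10 without an animal. For the difference 1 of the 6 passed with no filter, quantile normalization, no variance trend or the actin covariate, and 1 to 2 without an animal; over all genes it was 230 with the actin covariate and 296 to 600 without an animal. The cause was not tested.

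Signs turned for some values, none of which passed as reported. After antibiotics quantile normalization gave -0.15 for Hsd17b10, -0.067 for Hsd17b13, -0.0073 for Hsd17b4, -0.015 for Sult1e1 and -0.0023 for Akr1c14 (1396933_s_at), and the actin covariate gave -0.052 for Hsd17b10. Without an animal, Hsd17b10 ran from -0.059 to 0.067, Hsd17b13 from -0.011 to 0.21 and Nr3c1 from -0.053 to 0.070. In germ-free livers Nr3c2 ran from -0.13 to 0.029. For the difference, Hsd17b13 was -0.12 with the actin covariate; Akr1c14 was 0.051 with quantile normalization and -0.29 to 0.13 without an animal; its probe set 1396933_s_at was 0.094 with quantile normalization, 0.022 with the actin covariate and -0.13 to 0.084 without an animal.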
